A study of Rattus norvegicus with 12 samples.

Results

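The 5 dopamine receptor genes of the rat, *Drd1*, *Drd2*, *Drd3*, *Drd4* and *Drd5*, were read from a table of raw read counts for 17337 genes by their symbols, and all 5 had a row. The table covered the striatum of 12 rats labelled as having self-administered methamphetamine (MA) for 16 days, with 1 mRNA library per rat. Of these, 4 were labelled non-addicted, 4 were taken after 12 h of abstinence (MA12) and 4 after 24 h (MA24). The rats were wild-type and, per the study's methods, male and about 8 weeks old at the start of lever training. MA was taken in short daily sessions, and only rats with steady lever pressing entered the abstinence groups, so the groups model short-access intake rather than long-term addiction. How a non-addicted rat was defined, and at what time it was taken, is not given in the sources used here. No rats labelled as saline were analysed here, so by the labels every comparison was between rats that had taken MA. The study's paper describes saline, MA, 12 h and 24 h abstinence groups but no non-addicted group. Which of these, if any, the non-addicted rats correspond to is not given. MA24 rats all had a number ending in N, non-addicted rats had none, and MA12 had 2 of each (4N and 7N, 21 and 31). What N stands for is not given, so for MA24 against non-addicted rats it cannot be told apart from the group. Per the study's methods, lights followed a 12-h light-dark cycle, and MA12 and MA24 were timed from the last daily session. The clock times of sampling are not given. Unless session hours differed between the groups, abstinence length cannot be told apart from time of day in MA24 vs MA12.

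Dopamine receptors are G protein-coupled receptors in 2 families. The D1-like receptors, encoded by *Drd1* and *Drd5*, raise cyclic AMP through Gs and Golf proteins, and the D2-like receptors, encoded by *Drd2*, *Drd3* and *Drd4*, lower it through Gi and Go proteins and also signal through arrestins, Akt and GSK3. In the striatum *Drd1* marks the projection neurons of the direct pathway, which also make dynorphin and substance P, and *Drd2* those of the indirect pathway, which make enkephalin, while *Drd3* is known from the ventral striatum and the islands of Calleja. MA releases dopamine from the terminals of midbrain neurons, so both families are exposed to more dopamine during intake.

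Library totals ran from 17908962 to 23850284 counts and did not differ between groups beyond their spread (two-sided exact permutation tests, p = 0.6 to 0.8). The striatal label was checked against marker genes. *Ppp1r1b*, which encodes the striatal phosphoprotein DARPP-32, had 138409 to 203294 counts in every library, *Penk* (enkephalin) 41286 to 63052 and *Adora2a* 16964 to 22696, while the 4 cortical markers summed to 2.69 to 10.2 CPM (counts of a gene per 1000000 counts of the library). Within MA24 the cortical sum ran from 3.4 CPM in rat 14N to 10.2 CPM in rat 16N, the highest of all 12 rats. The cortical marker *Slc17a7* had a log2FC of 1.03 in MA24 vs MA12 (edgeR quasi-likelihood test, adjusted p = 0.069). Rat 16N also had 25 counts of the hypothalamic gene *Oxt*, against 0 to 8 in MA12. The part of neighbouring tissue in the values of rat 16N was not tested. In bulk tissue, fewer cells of a type and less RNA per cell cannot be told apart.

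The counts decided how precisely each receptor could be measured. *Drd1* and *Drd2* had mean counts of 9367 and 9559 per library, above those of 97.2% and 97.4% of the 12649 genes with enough counts. *Drd5* had a mean of 40.6 counts and *Drd3* of 7.58, and *Drd4* had 7 counts over all 12 libraries together. *Drd4* did not pass the filter, which required a mean count above 4 over the libraries compared, in any comparison. *Drd3* passed it in the comparison with MA24 through the non-addicted rats (mean 13.2 counts against 3.25 in MA24) and in MA24 vs MA12 through MA12 (6.25). The counts are shown here as CPM after scaling by the trimmed mean of M-values (TMM), and levels are not compared between genes because gene lengths were not used.

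**Figure D1:**
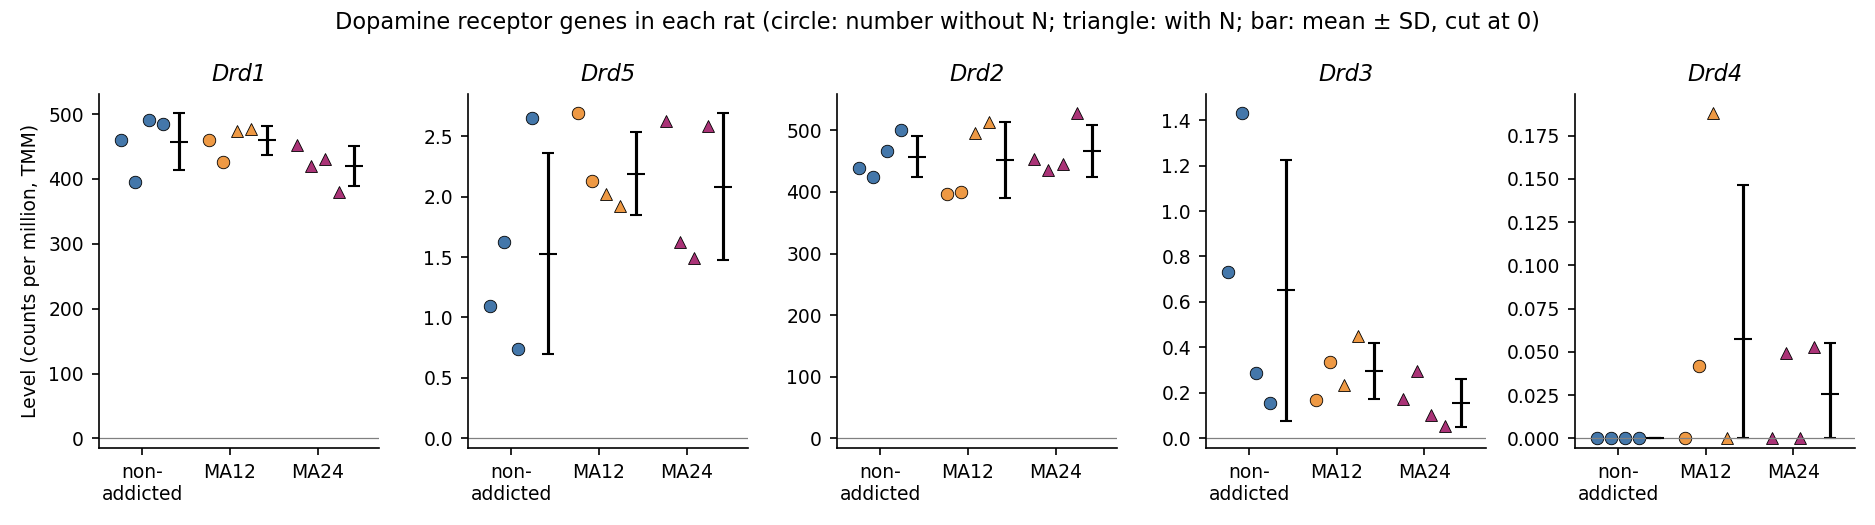
Level of each dopamine receptor gene in every rat, in CPM after TMM scaling, with a separate axis from 0 for each gene. Circles are rats whose number has no N, triangles are rats with N, and bars are the group mean ± SD (n = 4, lower end cut at 0). *Drd1* and *Drd2* stayed within 379 to 491 CPM and 396 to 528 CPM in all rats, while *Drd3* was highest in non-addicted rats 9 and 11 and *Drd4* was at 0 in 8 of 12 rats.

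The regions just before the start sites are shown for *Drd2* and *Drd3* because they had the highest and lowest GC content of the D2-like genes. All 5 genes matched the RefSeq promoter table, which is on build GRCr8, whereas the counts were made on rn6. Of the 250 bases upstream, 66.0% were G or C for *Drd2*, 67.2% for *Drd5*, 48.4% for *Drd4* and 38.0% for *Drd3*, against a median of 51.2% over 33469 rat promoters. For *Drd1* (51.2%) this window lay inside the annotated gene and it is not shown. The GC box GGGCGG, searched on both strands and marked in capitals below (CCGCCC where it lies on the other strand), occurred 2 times in the windows of *Drd2* and *Drd5* and in no other receptor window, and 30.5% of all promoters held it. The cAMP response element TGACGTCA (1.59% of promoters) and the TATA box TATAAA (12.9%) occurred in none of the 5 windows. The *Drd2* window was chr8:58605153-58605402 on the plus strand and the *Drd3* window chr11:70437794-70438043 on the minus strand, both 5′ to 3′.
Drd2: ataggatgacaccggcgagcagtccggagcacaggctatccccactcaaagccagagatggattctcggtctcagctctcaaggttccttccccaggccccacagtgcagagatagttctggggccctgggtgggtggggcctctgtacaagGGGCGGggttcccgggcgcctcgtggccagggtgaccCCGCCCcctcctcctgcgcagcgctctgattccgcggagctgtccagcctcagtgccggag
Drd3: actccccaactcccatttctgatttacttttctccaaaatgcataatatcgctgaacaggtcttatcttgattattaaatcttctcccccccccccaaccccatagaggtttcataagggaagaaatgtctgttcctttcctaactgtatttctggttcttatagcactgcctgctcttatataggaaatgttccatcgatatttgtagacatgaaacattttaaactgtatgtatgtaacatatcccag

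The 3 comparisons asked whether receptor expression differed between 24 and 12 h of abstinence and between non-addicted rats and each abstinence time. None of the 4 receptors that could be tested was a differentially expressed gene (DEG: FC ≥ 1.5 and adjusted p below 0.05, edgeR quasi-likelihood test) in any of them. By the same rule 2.45% of all genes tested were DEGs in MA24 vs MA12, 0.251% in non-addicted vs MA12 and 0.456% in non-addicted vs MA24. These shares depended on the variance filter, which removed the least variable 15% of genes. Without it DEGs numbered 195 of 12652, 5 of 12657 and 0 of 12640 genes, respectively. At an unadjusted p below 0.05 there were 0 of 4 receptors in MA24 vs MA12, 0 of 4 in non-addicted vs MA12 and 1 of 4 (*Drd3*) in non-addicted vs MA24, where 23.6%, 12.3% and 17.5% of all genes had such a p, and DESeq2 also called 0 receptors. The receptors' values overlapped between the groups in every comparison, where 15.5%, 7.11% and 10% of all genes did not overlap, respectively. At the abundance of *Drd1* and *Drd2* the data set a narrow limit on any change. All 6 of their 95% intervals lay inside a 1.5-fold change in either direction, whereas none of the 6 intervals of *Drd3* and *Drd5* did.

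*Drd1*, the main D1-like receptor gene of the striatum, was at 460, 395, 491 and 485 CPM in non-addicted rats 9, 11, 12 and 13. It was at 459, 427, 473 and 478 CPM in MA12 rats 21, 31, 4N and 7N, and at 453, 420, 430 and 379 CPM in MA24 rats 9N, 14N, 15N and 16N. MA24 rat 16N had the lowest level and non-addicted rat 11 the next lowest, and the groups overlapped. The group means were 458 ± 43.9, 459 ± 23.0 and 421 ± 30.9 CPM (SD, n = 4 each). The order of the means was thus MA12, non-addicted, MA24, with no step beyond the spread. Between MA24 and MA12 the fold change was 0.916 (95% interval 0.798 to 1.05; log2FC -0.13, SE 0.095, adjusted p = 0.428). Non-addicted rats differed from MA12 by a log2FC of -0.01 (interval -0.22 to 0.20; adjusted p = 0.983) and from MA24 by 0.12 (interval -0.09 to 0.32; adjusted p = 0.540).

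*Drd5*, the other D1-like gene, had 21, 33, 18 and 51 counts in the non-addicted rats in the same order, 64, 51, 43 and 34 counts in MA12 and 61, 33, 29 and 49 counts in MA24. As CPM the group means were 1.53 ± 0.834, 2.19 ± 0.345 and 2.08 ± 0.608 (SD, n = 4 each). Non-addicted rats 9 and 12 had the lowest levels, but non-addicted rat 13, at 2.65 CPM, lay above 3 of the 4 MA12 rats. The log2FC of non-addicted rats against MA12 was -0.53 (SE 0.38; interval -1.33 to 0.26; adjusted p = 0.605), that against MA24 -0.46 (adjusted p = 0.551), and that of MA24 vs MA12 -0.07 (interval -0.74 to 0.59; adjusted p = 0.913). Non-addicted rat 13 decided whether the non-addicted and MA12 rats overlapped. Without it the log2FC was -0.92 with adjusted p = 0.306. The exact permutation test of the levels gave p = 0.2 with it and 0.0286 without it, the latter being the smallest p that 3 against 4 rats allow. As rat 13 was singled out by its own value, the second p was fixed in advance and is no evidence of a difference.

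*Drd2*, which encodes the main D2-like receptor of the indirect pathway and the autoreceptor of dopamine neurons, was at 439, 424, 466 and 500 CPM in the non-addicted rats. It was at 396, 400, 496 and 513 CPM in MA12 rats 21, 31, 4N and 7N, and at 454, 436, 446 and 528 CPM in MA24 rats 9N, 14N, 15N and 16N. The highest level was in MA24 rat 16N, which had the lowest *Drd1*. The MA12 rats fell into 2 pairs by the N in their number, with the pair without N below and the pair with N above most other rats, and the part of this difference in the comparisons was not tested beyond the fits given here. The group means of 457 ± 33.6, 451 ± 61.7 and 466 ± 42.2 CPM (SD, n = 4 each) did not differ beyond their spread. The log2FC was 0.05 for MA24 vs MA12 (interval -0.18 to 0.27; adjusted p = 0.837), 0.02 for non-addicted vs MA12 (adjusted p = 0.974) and -0.03 for non-addicted vs MA24 (adjusted p = 0.888). With only the rats numbered with N, the log2FC of MA24 vs MA12 was -0.10, and with only those without N that of non-addicted vs MA12 was 0.21, and neither passed the threshold.

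*Drd3* had 14, 29, 7 and 3 counts in non-addicted rats 9, 11, 12 and 13. It had 4, 8, 5 and 8 counts in MA12 and 4, 6, 2 and 1 counts in MA24. Non-addicted rats 9 and 11 stood above all other rats, while rats 12 and 13 lay among the abstinent ones. The sums of 53, 25 and 13 counts per group had Poisson intervals of 39.7 to 69.3, 16.2 to 36.9 and 6.92 to 22.2, which cover counting error only and not the spread between rats. The log2FC of non-addicted rats was 1.99 against MA24 (SE 0.77; interval 0.39 to 3.60; adjusted p = 0.204) and 1.12 against MA12 (SE 0.68; interval -0.31 to 2.55; adjusted p = 0.540). For the first, the exact permutation test of the levels gave p = 0.143. Non-addicted rat 11 carried much of both values, which were 1.27 (adjusted p = 0.497) and 0.40 without it. Markers of tissues next to the striatum also varied among the non-addicted rats. In rats 9, 11, 12 and 13, *Avp* (vasopressin, a hypothalamic peptide) had 11, 181, 3 and 10 counts and *Oxt* (oxytocin) 2, 42, 1 and 32. *Ttr*, a choroid plexus gene, had 329, 1, 17 and 0 counts, and *Foxj1*, a gene of ciliated ependymal cells, 464, 1096, 938 and 395. Of these rats, rat 11 was highest in *Drd3*, *Avp*, *Oxt* and *Foxj1* and had 1 count of *Ttr*. Rat 13 was lowest in *Drd3*, *Ttr* and *Foxj1* and had 32 counts of *Oxt*. The summed level of the 4 hypothalamic markers was 1.89 to 13.0 CPM in non-addicted rats, 1.21 to 3.32 CPM in MA12 and 0.788 to 2.90 CPM in MA24, with *Pmch* at 0 in all libraries. The summed level of the 6 choroid plexus and ependymal markers was 36.9 to 93.5, 24.1 to 64.0 and 27.0 to 43.5 CPM, respectively, and that of the 4 vascular markers 267 to 379, 358 to 465 and 431 to 481 CPM. That of the 4 oligodendrocyte markers was 10428.2 to 15540.4, 10822.5 to 19539.6 and 16308.6 to 19094.8 CPM. All 4 had a log2FC below 0 in non-addicted vs MA24, and *Mbp* had -0.53 (adjusted p = 0.0443), under 1.5-fold. The 5 cholinergic interneuron markers gave 0 DEGs, with all 5 log2FC above 0 in MA24 vs MA12 (median 0.34) and all 5 below 0 in non-addicted vs MA24 (median -0.15). Of the markers of other cell types and tissues, *Foxj1* was an upregulated DEG in non-addicted vs MA24 (log2FC 1.08, adjusted p = 0.0354). The endothelial genes *Kdr* (log2FC -1.08 against MA12, adjusted p = 0.0128; -0.85 against MA24, adjusted p = 0.0354) and *Cldn5* (-0.68 against MA24, adjusted p = 0.0241) were downregulated DEGs in non-addicted rats. The calls of *Foxj1*, *Kdr* and *Cldn5* against MA24 depended on the processing. In that comparison no gene was a DEG without the variance filter (0 of 12640) or without non-addicted rat 12 (0 of 10716). The part of these tissues and cells in the *Drd3* values was not tested. MA24 vs MA12 gave a log2FC of -0.87 (interval -2.50 to 0.75; adjusted p = 0.514).

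*Drd4*, the D2-like gene best known from cortex and retina, was at 0 in all 4 non-addicted rats, in MA12 rats 21 and 7N and in MA24 rats 9N and 15N. MA12 rat 31 had 1 count and rat 4N had 4 counts, and MA24 rats 14N and 16N had 1 count each. The 0 of 82351790 counts in non-addicted rats allows up to 3 counts over the group, or 0.0364 CPM, as a one-sided 95% bound. The two-sided 95% Poisson intervals were 0 to 3.69 counts for the non-addicted sum of 0, 1.62 to 11.7 for the MA12 sum of 5 and 0.242 to 7.22 for the MA24 sum of 2. No difference in *Drd4* was detectable at this depth.

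**Figure D2:**
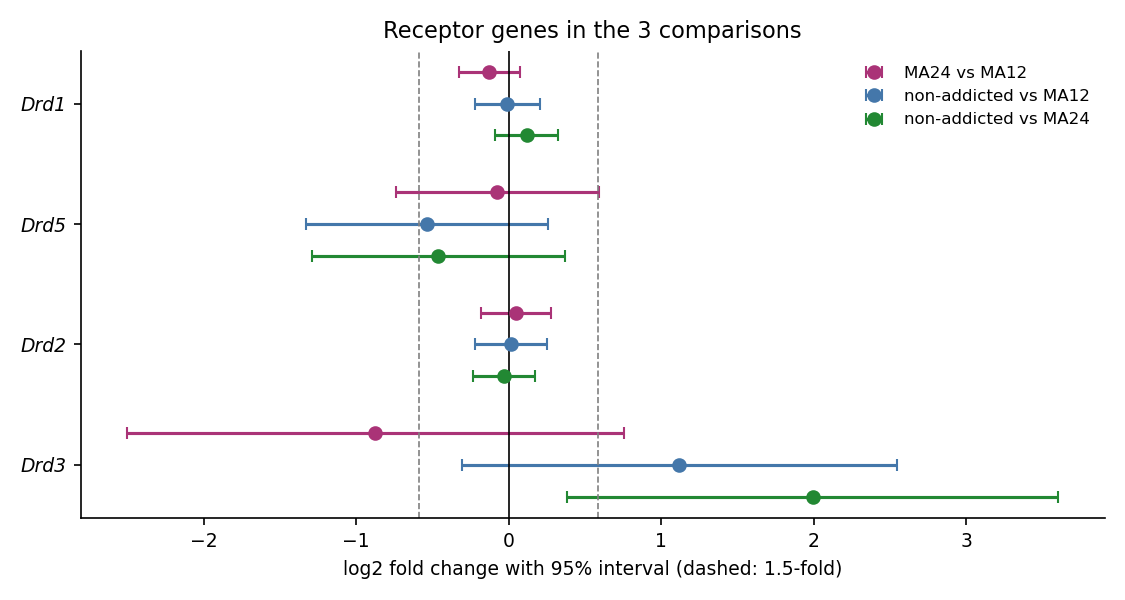
log2 fold change of the 4 receptor genes tested in each comparison (points) with 95% intervals (bars) from edgeR, n = 4 rats per group, with dashed lines at a 1.5-fold change. The intervals of *Drd1* and *Drd2* lie between the dashed lines in all 3 comparisons, and those of *Drd3* reach from -2.50 to 3.60.

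The level of each single receptor was also put to an exact permutation test (two-sided), in which 4 against 4 rats can be split in 70 ways and p cannot go below 0.0286. Over the 12 tests of the 4 receptors the lowest adjusted p was 0.549. A p above the threshold does not show that levels were equal, and the intervals above give the sizes of change that the data allow.

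The spread of each receptor over the 12 rats was set beside that of other genes. The SD of log2 CPM was 0.12 for *Drd1* and 0.14 for *Drd2*, with 17.9% and 25.7% of 12649 genes below them. Among genes of similar mean count, whose median SD was 0.13 for both, 39.3% had a lower SD than *Drd1* and 55.4% a lower SD than *Drd2*. *Drd5* had an SD of 0.54 and *Drd3* of 0.92, where the medians of genes with similar counts were 0.50 and 0.84. Each receptor thus varied about as much as other genes of its abundance.

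The ratio of *Drd1* to *Drd2* counts was taken in each rat as a measure of the balance of the direct and indirect pathway receptors, in which the library scaling cancels. Its log2 value was 0.07, -0.10, 0.07 and -0.04 in non-addicted rats 9, 11, 12 and 13. It was 0.21, 0.09, -0.07 and -0.10 in MA12 rats 21, 31, 4N and 7N. In MA24 it was -0.00, -0.05, -0.05 and -0.48 in rats 9N, 14N, 15N and 16N. Rat 16N had by far the lowest balance, with 0.718 *Drd1* counts per *Drd2* count, and the MA12 rats again parted by the N in their number. MA24 was 0.18 below MA12 in mean log2 balance (exact permutation p = 0.286, adjusted p = 0.429), with group means of -0.15 ± 0.22 and 0.03 ± 0.15 (SD, n = 4 each). Non-addicted rats differed by -0.04 from MA12 (exact permutation p = 0.686) and by 0.14 from MA24 (exact permutation p = 0.229). Without rat 16N the difference of MA24 from MA12 was -0.07.

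The balance was then set beside markers of the neurons that carry these receptors, a comparison chosen after the values were seen. The markers were 6 genes of direct pathway neurons (*Pdyn*, *Tac1*, *Chrm4*, *Isl1*, *Ebf1* and *Sfxn1*) and 5 of indirect pathway neurons (*Penk*, *Adora2a*, *Gpr6*, *Gpr52* and *Sp9*). The marker balance, the mean log2 CPM of the first list minus that of the second after centring each gene, was lowest in rat 16N (-0.29), followed by non-addicted rat 11 (-0.20) and MA24 rat 14N (-0.15). Over the 12 rats it rose with the receptor balance (r = 0.74, permutation p = 0.00384; rho = 0.65, permutation p = 0.0258; 1 relation computed). Leaving out rats 16N and 11, the farthest from the median, gave r = 0.37, so the relation rests on those rats. Within the 6 rats with N r was 0.76, and within the 6 without N it was 0.70, but each of these sets holds 1 of the 2 rats just named (16N and 11). The marker balance itself did not differ between groups beyond its spread (exact permutation p = 0.114 to 0.571).

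**Figure D3:**
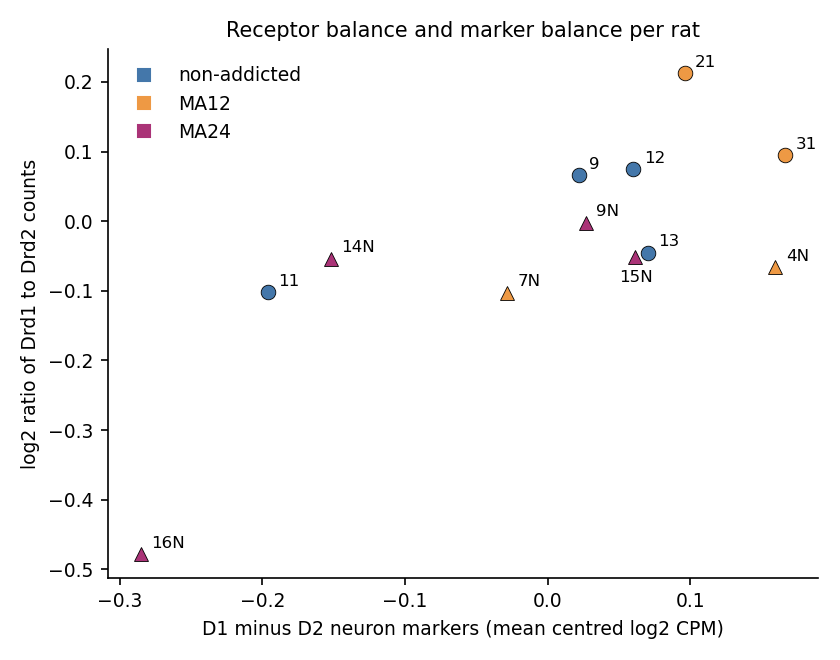
log2 ratio of *Drd1* to *Drd2* counts (y axis) against the balance of direct and indirect pathway neuron markers (x axis, mean centred log2 CPM of the 6 direct minus the 5 indirect markers) in each of the 12 rats, coloured by group, with triangles for rats numbered with N. MA24 rat 16N lies alone at the lower left (-0.29 and -0.48), and r falls from 0.74 to 0.37 without it and non-addicted rat 11.

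Across the 12 rats the levels of the receptors with enough counts were compared pairwise. *Drd1* and *Drd2* had r = 0.14 (permutation p = 0.659) and rho = 0.33 (permutation p = 0.297), and r = 0.65 without rat 16N and non-addicted rat 11. The pairs *Drd1* and *Drd5* (r = -0.22, permutation p = 0.499) and *Drd2* and *Drd5* (r = 0.10, permutation p = 0.760) showed no relation past the threshold either, and the adjusted p of all 3 pairs was 0.760. In the rats without N r of *Drd1* and *Drd2* was 0.61 (n = 6) and in those with N it was -0.06 (n = 6).

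The genes whose levels were most like those of the receptors were taken from 10764 genes with a mean count of at least 50, as a description over 12 libraries that share preparation and scaling. For *Drd1* these included *Dgkb* (diacylglycerol kinase beta; r = 0.92, rho = 0.92), *Hif1a* (r = 0.91, rho = 0.85), *Fam172a* (r = 0.91, rho = 0.80) and *Akap11* (an anchor protein of protein kinase A; r = 0.90, rho = 0.91). For *Drd2* they included *Pgbd5* (r = 0.89, rho = 0.90), *Scrt2* (r = 0.88, rho = 0.87), *Esyt1* (r = 0.88, rho = 0.87) and *Pde2a* (a cyclic nucleotide phosphodiesterase; r = 0.88, rho = 0.87). The 2 sets had no gene in common.

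The genes that supply dopamine to the receptors and carry their signal were taken from 4 lists with 47 genes, of which 46 were tested. In MA24 vs MA12, 0 were upregulated and 3 were downregulated DEGs, where 2.45% of all genes were DEGs. In both comparisons with non-addicted rats 0 of 46 were DEGs, by edgeR and by DESeq2. At an unadjusted p below 0.05 there were 16, 6 and 8 of the 46 genes in MA24 vs MA12, non-addicted vs MA12 and non-addicted vs MA24, beside the 23.6%, 12.3% and 17.5% of all genes given above. The median log2FC of all genes tested was -0.02 in MA24 vs MA12, -0.01 in non-addicted vs MA12 and 0.00 in non-addicted vs MA24.

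Among the 7 genes of dopamine synthesis and handling, *Slc6a3*, the dopamine transporter, had 0 to 4 counts per library and was not tested, and *Th*, the rate-limiting enzyme of dopamine synthesis, had 2 to 34 counts. The dopamine neurons that express these genes have their cell bodies in the midbrain, and the source of the reads found here was not tested. The median log2FC of the 6 tested genes was 0.04 in MA24 vs MA12, 0.04 in non-addicted vs MA12 and 0.04 in non-addicted vs MA24. *Th* (0.78, adjusted p = 0.488) and the vesicular transporter gene *Slc18a2* (-0.61, adjusted p = 0.136) had the largest log2FC in MA24 vs MA12, and neither passed the threshold. Against MA24, non-addicted rats had a log2FC of -1.22 for *Th* (adjusted p = 0.317) and of 0.79 for *Slc18a2* (adjusted p = 0.138).

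The 16 genes of Gs/olf, cyclic AMP and protein kinase A transduction, the D1-like pathway, gave 0 DEGs in each comparison by edgeR and DESeq2 and 6, 2 and 4 genes at an unadjusted p below 0.05, with median log2FC of -0.04, -0.01 and 0.05. *Pde10a*, a striatal phosphodiesterase, had 10353 to 14949 counts in MA12 and 6074 to 12701 in MA24 (log2FC -0.47, adjusted p = 0.0554). *Prkacb*, a catalytic subunit of protein kinase A, had a log2FC of -0.46 (adjusted p = 0.0620). The other 4 of the 6 genes, named after their values were seen, had log2FC above 0 in MA24: *Gng7* (0.29), *Ppp1r1b* (0.29), *Arpp21* (0.30) and *Ppp1r9b* (0.33), with adjusted p of 0.0867 to 0.175. Against MA12, non-addicted rats had log2FC of -0.42 for *Pde10a* (adjusted p = 0.145) and -0.33 for *Prkacb* (adjusted p = 0.170). Against MA24 they had log2FC of -0.29 for *Ppp1r1b* (adjusted p = 0.170) and -0.25 for *Gng7* (adjusted p = 0.221).

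The 3 DEGs were all among the 18 genes of Gi/o, RGS, arrestin, Akt and GSK3 transduction, whose median log2FC was -0.10 in MA24 vs MA12, with 6 genes above 0 and 12 below. *Grk5*, a kinase that phosphorylates activated G protein-coupled receptors, was at 31.0, 22.6, 22.7 and 21.1 CPM in MA12 rats 21, 31, 4N and 7N and at 18.4, 13.7, 16.7 and 13.1 CPM in MA24 rats 9N, 14N, 15N and 16N (log2FC -0.65, SE 0.15, adjusted p = 0.0166). *Arrb1*, which encodes 1 of the beta-arrestins that bind phosphorylated receptors, was at 61.7, 73.3, 65.1 and 51.3 CPM in MA12 and at 50.9, 24.6, 43.6 and 48.3 CPM in MA24 (log2FC -0.59, SE 0.17, adjusted p = 0.0453). *Gsk3b*, a kinase downstream of the arrestin and Akt branch, was at 59.4, 69.6, 65.2 and 62.7 CPM in MA12 and at 53.9, 26.6, 47.0 and 38.4 CPM in MA24 (log2FC -0.63, SE 0.15, adjusted p = 0.0236). For each of the 3 genes every MA24 rat lay below every MA12 rat, for *Arrb1* by a narrow margin, and rat 14N had the lowest *Arrb1* and *Gsk3b*. Of all genes tested, 15.5% did not overlap in this comparison, and of the 18 listed genes 4 did not. Their relatives in the list did not all follow, and *Grk3* is given below. In MA24 vs MA12 the log2FC was 0.01 for *Arrb2* (adjusted p = 0.963) and -0.01 for both *Grk2* (adjusted p = 0.980) and *Grk6* (adjusted p = 0.943). It was 0.16 for *Akt1* (adjusted p = 0.372) and 0.20 for *Gsk3a* (adjusted p = 0.243). In the non-addicted rats *Grk5* ranged from 14.2 to 26.8 CPM, *Arrb1* from 31.5 to 58.1 CPM and *Gsk3b* from 40.1 to 56.5 CPM, and none was a DEG against either abstinent group.

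These calls depended on single rats. Without MA24 rat 16N none of the 3 genes passed (adjusted p = 0.0517 for *Grk5*, 0.0574 for *Arrb1* and 0.0625 for *Gsk3b*). Without MA12 rat 21 only *Gsk3b* passed and without MA24 rat 14N only *Grk5* did, while without MA24 rat 9N *Pde10a* and *Prkacb* passed as well. With only the rats numbered with N the log2FC were -0.49, -0.46 and -0.61, respectively, and 0 genes passed. *Arrb1* was the least stable of the 3: it missed the threshold under 6 of the 7 alternatives that kept all rats, among them DESeq2 (log2FC -0.57, under 1.5-fold) and the fit without the variance filter (adjusted p = 0.0776), where *Grk5* and *Gsk3b* passed, and with 1 rat left out it passed only without MA12 rat 7N or MA24 rat 9N. In the same list *Gnai1*, an inhibitory G protein alpha subunit, had a log2FC of -0.38 (adjusted p = 0.0451), smaller than 1.5-fold, and *Grk3* one of -0.60 (adjusted p = 0.167). *Rgs9*, a striatal regulator that ends G protein signals, had a log2FC in the other direction, 0.33 (adjusted p = 0.0791), with 16240 to 18758 counts in MA12 and 19408 to 22873 in MA24. These 3 genes, which complete the 6 of the list at an unadjusted p below 0.05, were named after their values were seen. In non-addicted vs MA24, 2 of the list had such a p, *Gnai1* (log2FC 0.39, adjusted p = 0.112) and *Rgs9* (log2FC -0.30, adjusted p = 0.145).

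**Figure D4:**
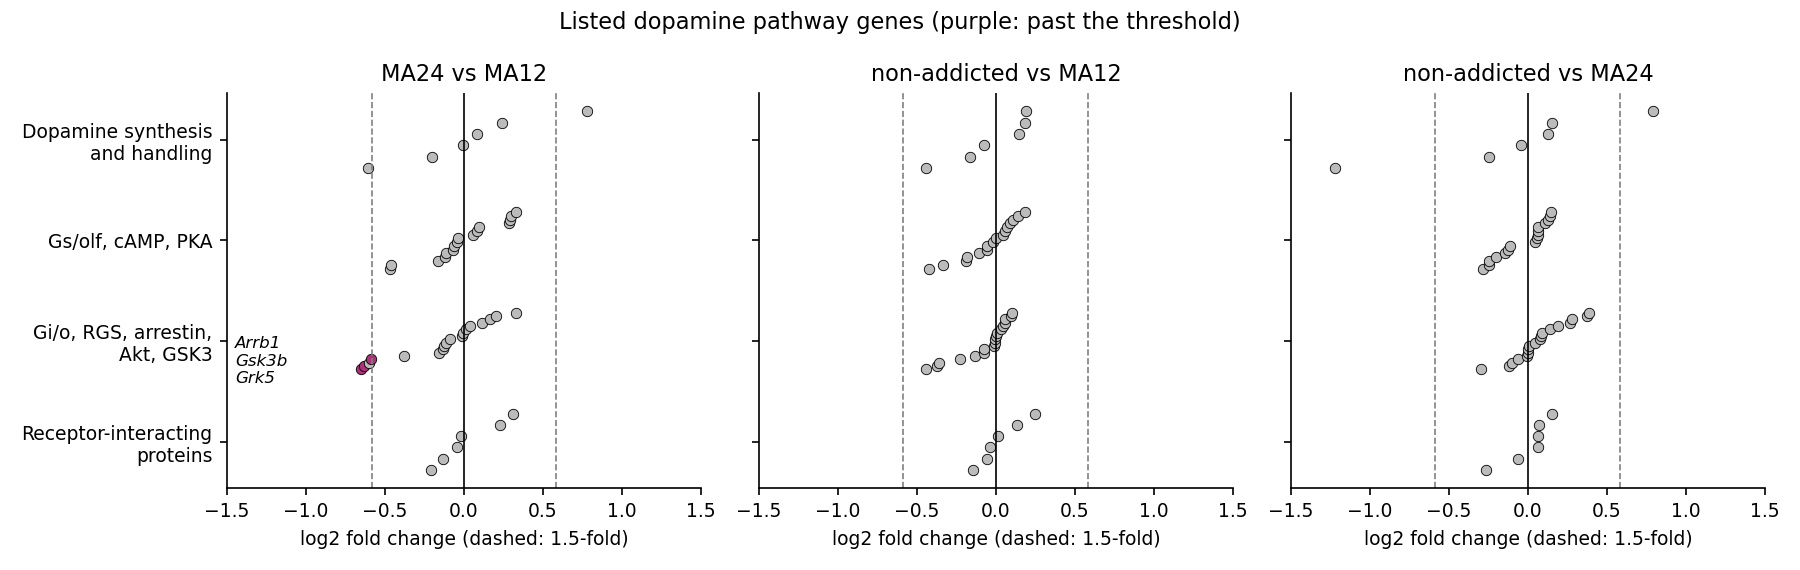
log2 fold change of the listed dopamine pathway genes that were tested, 1 point per gene, in the 3 comparisons (n = 4 rats per group), with dashed lines at a 1.5-fold change. The 3 purple points, *Grk5*, *Gsk3b* and *Arrb1* in MA24 vs MA12, are the DEGs, and all other points are grey.

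The 6 receptor-interacting proteins gave 0 DEGs by edgeR and DESeq2 and 2, 1 and 1 genes at an unadjusted p below 0.05, with median log2FC of -0.03, -0.01 and 0.06. *Caly* (calcyon) had a log2FC of 0.31 in MA24 vs MA12 (adjusted p = 0.0605) and of 0.25 in non-addicted vs MA12 (adjusted p = 0.319). *Gipc1*, which binds D2-like receptors, had a log2FC of 0.23 (adjusted p = 0.161) in MA24 vs MA12.

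Of the markers of the *Drd1* and *Drd2* neurons, 1 was a DEG, in non-addicted vs MA12, where 0.251% of all genes were DEGs. This was *Pdyn*, the dynorphin precursor of the *Drd1* neurons. It was at 296, 227, 317 and 316 CPM in the non-addicted rats, at 451, 393, 469 and 505 CPM in MA12 and at 356, 304, 274 and 286 CPM in MA24. MA12 rats lay above all others, where 15.5% of all genes did not overlap in MA24 vs MA12 and 7.11% in non-addicted vs MA12. *Pdyn* was downregulated in non-addicted rats against MA12 (log2FC -0.65, adjusted p = 0.0281), and in MA24 vs MA12 it had a log2FC of -0.57 (adjusted p = 0.00838), just under the 1.5-fold limit. The first call was lost without the variance filter (adjusted p = 0.0643), with at least 10 counts required in every library (0.0715), among the rats numbered without N (log2FC -0.53, adjusted p = 0.0551), and without non-addicted rat 11 (0.0645), rat 12 (0.0554), MA12 rat 21 (0.0564) or MA12 rat 4N (0.0564), and without MA12 rat 7N its log2FC of -0.58 was under the limit. *Tac1*, the other peptide precursor of these neurons, had log2FC of -0.14 and -0.07 in the same comparisons (adjusted p = 0.725 and 0.723). In MA24 vs MA12, 1 of the 6 markers of these neurons had a log2FC above 0, *Chrm4* (0.28, adjusted p = 0.115), and 5 were below 0. In non-addicted vs MA12, 3 were above 0 and 3 below, among them *Ebf1* (-0.50, adjusted p = 0.142). Of the 5 *Drd2* neuron markers, 3 were above 0 and 2 below in MA24 vs MA12. All 5 markers shared by both kinds of neuron were below 0 in that comparison. The difference between *Pdyn* and *Drd1* was not tested, nor was the part in it of the endothelial genes that also differed between non-addicted and MA12 rats (*Kdr*, above).

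**Figure D5:**
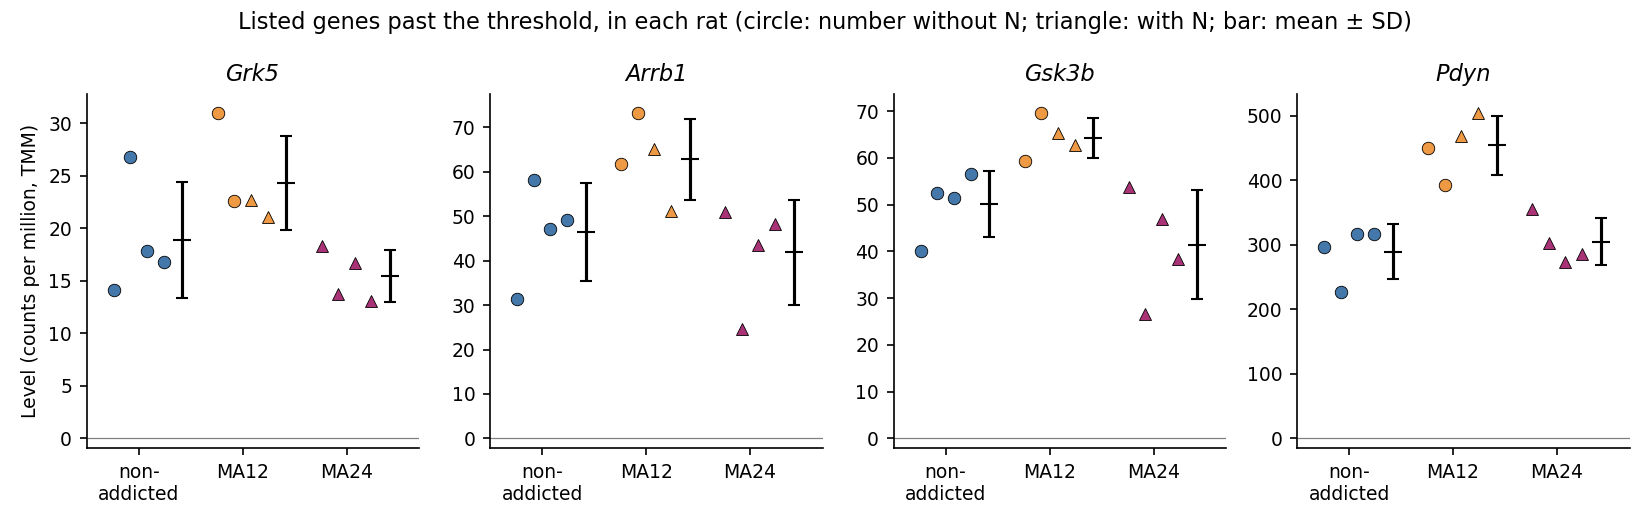
Levels of *Grk5*, *Arrb1*, *Gsk3b* and *Pdyn* in every rat, in CPM after TMM scaling, each axis from 0. Circles are rats without N in their number, triangles are rats with N, and bars are the group mean ± SD (n = 4). All MA24 rats lie below all MA12 rats in each panel, where 15.5% of all genes did not overlap between these groups. The non-addicted rats overlap both abstinent groups in *Grk5* and *Arrb1*.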

How the data were processed

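The authors made the raw counts: per the submitters' processing notes, reads were trimmed with cutadapt 1.18 and aligned to rn6 with STAR 2.7.0e, and HTSeq 0.12.4 and featureCounts are both named for counting. The deposited counts of all 17337 genes were fitted here, 2 groups at a time, with edgeR 4.0.16 (R 4.3.3): a mean count above 4, removal of the least variable 15% of genes (log2 CPM), TMM scaling, quasi-likelihood test and Benjamini-Hochberg adjustment. Genes lost to the variance filter were taken from the fit without it. Log2 levels used a prior count of 2. In a simulation of MA24 vs MA12, with counts drawn independently for each gene, 76.5% of 200 genes changed 2-fold were called. These were picked at random from the genes tested. The share is thus no rate for genes with as few counts as *Drd3* or *Drd5*, nor for the comparisons with non-addicted rats. DESeq2 1.42.0 was an alternative. The members and lists were chosen with earlier results of these data known. Members were named in full, and from each list the DEGs, otherwise the 2 genes with the largest log2FC. Each library was 1 rat, and the tests set differences between groups against the spread between rats. All 12 samples carry 1 batch label. *Grk2* and *Grk3* were matched by older symbols. Of the 5 genes most like *Drd1* and the 5 most like *Drd2*, 1 each is not reported here.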

Additional observations from a re-analysis of the deposited data

Results flagged for a closer look

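The log2 balance of *Drd1* to *Drd2* counts in MA24 rat 16N (-0.48) lay far below those of the other MA24 rats (-0.05 to -0.00). Its gap to the nearest rat was 0.891 of the group's range, above Dixon's critical value for 4 samples. It was 1 of 15 groups tested in this way, of which chance would pick about 0.75. The same rat had the highest *Drd2* and the lowest *Drd1* level of all 12 rats. It also had the highest summed level of the cortical markers and the most *Th* counts of all 12 rats. The part of neighbouring tissue in its balance was not tested.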

How the results depend on the processing

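The count of receptors past the threshold was 0 in each comparison under all 47 alternative fits over the 3 comparisons. These were the size factors of DESeq2, DESeq2 itself, a likelihood ratio test, stricter and looser filters, a joint fit of the 3 groups, leaving out each rat, and rats of 1 kind of number where both groups had them. DESeq2 gave no adjusted p for *Drd3* in the comparisons with MA24. Some fits tested only 3 receptors. With at least 10 counts in every library *Drd3* was not tested. The variance filter removed *Drd1* without rat 16N in MA24 vs MA12 and without non-addicted rat 11 against MA12. It removed *Drd2* without non-addicted rat 13 or rat 16N in non-addicted vs MA24. In the same fits without that filter these receptors did not pass. Directions were kept except where the main value was near 0. *Drd2* in MA24 vs MA12 ran from -0.0200 to 0.12 with 1 rat left out and was -0.104 with only rats numbered with N, and *Drd5* ran from -0.209 to 0.0554 and was 0.0912. In non-addicted vs MA12, *Drd1* was 0.000358 with the other size factors, 0.000397 with DESeq2, 0.0605 with only rats without N and -0.0452 to 0.0542 with 1 rat left out, and *Drd2* ran from -0.0417 to 0.105. *Drd2* in non-addicted vs MA24 ran from -0.0749 to 0.0402. Differences in mean log2 level with 1 rat left out ran in MA24 vs MA12 from -0.00937 to 0.117 for *Drd2* and -0.224 to 0.0354 for *Drd5*, in non-addicted vs MA12 from -0.0445 to 0.0601 for *Drd1*, -0.0315 to 0.0924 for *Drd2* and -0.923 to -0.350 for *Drd5*, and in non-addicted vs MA24 from -0.0691 to 0.0367 for *Drd2*. The balance of *Drd1* to *Drd2* in non-addicted vs MA12 ran from -0.0820 to 0.0231. Listed pathway DEGs in MA24 vs MA12 numbered 0 to 5 with 1 rat left out, and the cause was not tested. In non-addicted vs MA24 they numbered 0 to 1, *Slc18a2* passing without non-addicted rat 13 or MA24 rat 14N. The CV of the CPM among non-addicted rats was 88.3% for *Drd3* and 54.6% for *Drd5*, and *Drd4* had too few counts to test. No paired analysis was possible because the rat numbers name different animals in each group.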
